A study of Mus musculus with 12 samples.

Results

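Zscan4c, Zscan4d, Zscan4f, Tcstv1, Tcstv3 and Zfp352 are mouse genes best known from the two-cell embryo. They were followed by gene name through the accession that the array gives each probe. Of the 6 genes, 5 had a probe, with 8 probes between them among 39429 on the array, and Zscan4d had none under its own name. Zscan4c had 3 probes (A_52_P363843, A_55_P2007017 and A_55_P2019533), Zfp352 had 2 (A_55_P2060343 and A_55_P2182056), and Zscan4f (A_55_P2007986), Tcstv1 (A_51_P481768) and Tcstv3 (A_51_P143200) had 1 each. All 5 genes were among the 29838 tested, and 4 of them were well above background on all 12 arrays.

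The arrays measured RNA from E14 cells, a mouse embryonic stem (ES) cell line grown on gelatin without feeder cells in medium with serum and LIF, the cytokine that keeps ES cells undifferentiated. Cells of every group were transfected with esiRNAs, pools of short interfering RNAs cut from a longer double strand, and were harvested after 48 hr. The control was EGFP KD, and the knockdown (KD) targets were Mbd3, Mbd2, Chd4, Dnmt1 and Tet1. There were 2 one-colour Agilent arrays per group, each from its own sample, and a KD is a transient reduction in cells of 1 line, not a deletion. Dnmt1 copies DNA methylation to new strands, Tet1 oxidises methylated cytosine, and Mbd2 and Mbd3 are methyl-CpG-binding domain proteins. Mbd2 and Mbd3 belong to separate forms of the NuRD chromatin remodelling complex, and the ATPase Chd4 is part of both forms. The comparison asks how the mRNA of each gene differed from EGFP KD when each of these factors was reduced.

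In the early mouse embryo these genes are switched on when the zygotic genome is activated, and they fall silent soon after. In ES cell cultures they are found in a small and changing minority of cells, so a bulk sample averages a few cells with much of the mRNA and many with almost none. The Zscan4 genes form a tandem family of near-identical zinc finger proteins that act at telomeres. The Tcstv genes are a small family that has also been tied to telomeres, and Zfp352 is a zinc finger gene of retrotransposed origin. In these bulk samples, fewer cells of this state and less mRNA per cell cannot be told apart.

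The upstream sequences are shown to give the likeness of the Zscan4 copies before their starts. They do not show which copies an array probe reads. Probe sequences were not at hand, so that could not be checked. Windows were found in RefSeq (build GRCm38.p6) for 4 of the 6 genes, those of Zscan4c, Zscan4d, Zscan4f and Zfp352. Each line below gives the 250 bases before the annotated start, 5′ to 3′, with CG dinucleotides, the sites of DNA methylation, in capitals. Zscan4c lies on the plus strand at chr7:11005495-11005744, Zscan4f on the plus strand at chr7:11397665-11397914, and Zfp352 on the plus strand at chr4:90218570-90218819.
Zscan4c: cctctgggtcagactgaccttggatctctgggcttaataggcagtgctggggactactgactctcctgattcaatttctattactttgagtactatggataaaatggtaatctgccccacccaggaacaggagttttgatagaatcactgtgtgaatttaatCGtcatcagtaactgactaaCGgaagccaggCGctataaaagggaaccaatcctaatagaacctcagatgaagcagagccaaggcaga
Zscan4f: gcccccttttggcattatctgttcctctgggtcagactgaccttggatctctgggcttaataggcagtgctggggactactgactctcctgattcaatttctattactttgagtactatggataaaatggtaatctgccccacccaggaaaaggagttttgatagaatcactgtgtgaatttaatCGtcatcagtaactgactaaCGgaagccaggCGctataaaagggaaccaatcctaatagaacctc
Zfp352: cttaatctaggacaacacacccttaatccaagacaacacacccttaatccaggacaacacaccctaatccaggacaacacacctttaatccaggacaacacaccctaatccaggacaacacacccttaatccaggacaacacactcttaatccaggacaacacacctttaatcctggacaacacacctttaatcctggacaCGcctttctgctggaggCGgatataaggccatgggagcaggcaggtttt
Over the stretch that both windows cover, the Zscan4c and Zscan4f sequences were the same at 226 of 227 aligned positions, and Zscan4d, from its own window on the minus strand, matched Zscan4c at 232 of 239. Zscan4c, Zscan4d and Zscan4f held 3 CG each and Zfp352 held 2, against a median of 6 over the 32851 windows, of which 37.8% held 3 or fewer. The letters TATAAA, searched on both strands, were present in the windows of Zscan4c, Zscan4d and Zscan4f and in 12.4% of all windows. They began 54 bases before the start in Zscan4c and 31 bases before it in Zscan4f, since the annotated starts of the copies are offset. They were absent from the Zfp352 window, much of which is a short unit repeated in tandem. The arrays carry no measure of methylation.

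All levels below are log2 of the processed signal divided by the array's 75th percentile, so that 0 is a signal equal to that percentile. The value of a probe can be compared between arrays, but not with that of another probe. Values under a floor of -4.86, the dimmest scaled signal that could be measured on every array, were set to the floor. Where a gene had several probes, the brightest stood for it, which was A_55_P2007017 for Zscan4c and A_55_P2060343 for Zfp352. A log2 fold change (log2 FC) is the difference of 2 group means on this scale, with its standard error (SE) and Benjamini-Hochberg adjusted p over all genes tested, both from limma.

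No gene of the 5 was called in any KD at a limma adjusted p under 0.05. Over all genes tested, the share called was 0.764% in Mbd3 KD and 3.19% in Chd4 KD, and it was 0% for Dnmt1 KD, 0% for Tet1 KD and 0% for Mbd2 KD. At an unadjusted p under 0.05 the count was 2 of 5 in Mbd3 KD, both lower, and 0 of 5 in each of the other KDs. That threshold took in 9.66% of all genes in Mbd3 KD, and 5.3% of all genes were lower there at that threshold. For the other targets it took in 12.8% of all genes with Chd4 KD, 4.73% with Dnmt1 KD, 2.85% with Tet1 KD and 2.08% with Mbd2 KD. The values by array show where the Zscan4 genes, the Tcstv genes and Zfp352 differed in pattern.

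Of the 5 genes, Zscan4f had the largest fitted difference in Mbd3 KD. Its log2 signal was 1.26 and 1.36 on the EGFP KD arrays and -0.43 and -0.12 on the Mbd3 KD arrays. Both Mbd3 KD arrays lay below every other array of the 12. The log2 FC was -1.59 (SE 0.49, 95% interval -2.75 to -0.43), a 3-fold lower signal, with a limma adjusted p of 0.3. With the slide as a term in the fit it was -1.74 (limma, adjusted p = 0.231), and between the Mbd3 KD and EGFP KD arrays of slide 1 alone it was -1.69. In the fit of the 8 arrays without those labelled Tet1 KD or Mbd2 KD, chosen after seeing the data, the adjusted p by limma was 0.0888. That fit called 0 of the 29838 genes tested in Mbd3 KD.

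Zscan4c gave a smaller difference in the same direction. Probe A_55_P2007017 read 0.39 and 0.39 in EGFP KD against -1.11 and -0.38 in Mbd3 KD, a log2 FC of -1.13 (SE 0.40, limma, adjusted p = 0.39). Probe A_55_P2019533 read 0.24 and 0.15 in EGFP KD against -1.39 and -0.48 in Mbd3 KD, a log2 FC of -1.13 (SE 0.57, limma, adjusted p = 0.63). The third probe, A_52_P363843, gave a smaller difference, from -1.64 and -2.12 to -2.32 and -2.28, a log2 FC of -0.42 (SE 0.44, limma, adjusted p = 0.841). The Mbd3 KD arrays did not overlap the EGFP KD arrays for any of the 3 probes. Within slide 1, the difference between Mbd3 KD and EGFP KD was -1.50, -1.63 and -0.68 for these probes in turn.

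The Zscan4a accession, a copy annotated as a pseudogene that is not among the 6 genes, had 2 more probes. They differed in Mbd3 KD by -0.87 (A_55_P2007016, limma, adjusted p = 0.657) and -1.27 (A_65_P06115, limma, adjusted p = 0.527), again with both Mbd3 KD arrays below both EGFP KD arrays. Over the 12 arrays, the 15 pairs among these 6 Zscan4 probes correlated at r between 0.774 and 0.992, with a median of 0.933. The probes share arrays and very similar targets, and each may have read several copies, so they are not separate measurements of separate genes. Signal from the Zscan4d transcript, which had no probe under its name, may be part of these readings.

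**Figure D1:**
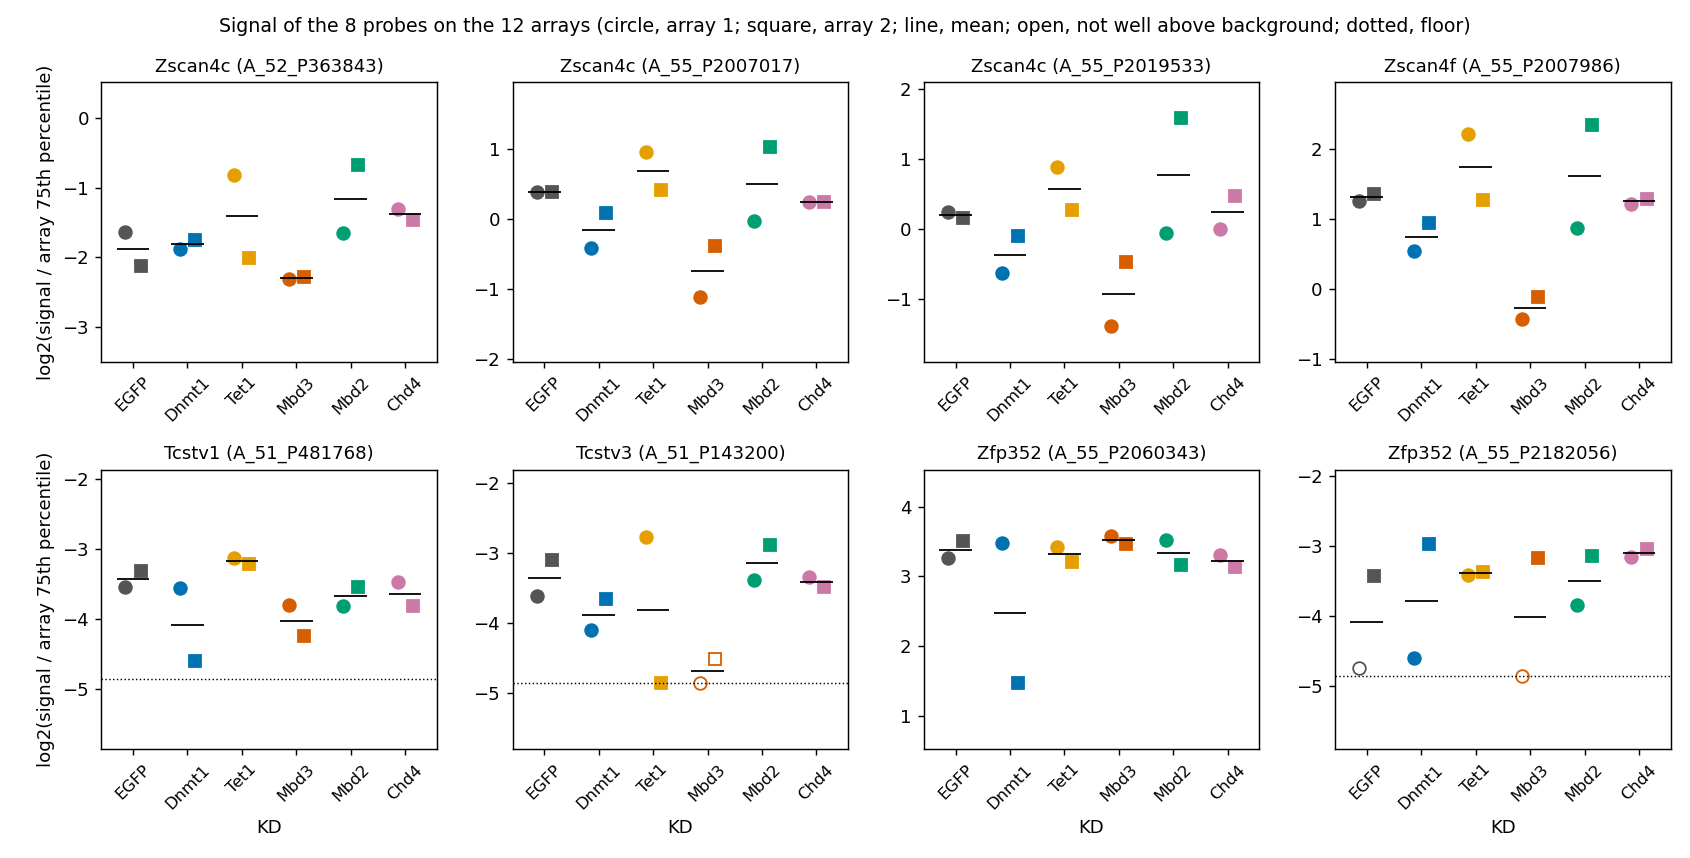
Log2 of signal over the array's 75th percentile (vertical axes, equal spans) for the 8 probes in each KD group, with circles for array 1, squares for array 2, a line at the mean of 2 arrays, open symbols where the probe was not well above background and a dotted line at the floor. Zscan4f is at -0.43 and -0.12 in Mbd3 KD and at 1.26 and 1.36 in EGFP KD, while the bright Zfp352 probe lies between 3.13 and 3.58 on all arrays except Dnmt1 KD 2, where it is at 1.47.

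Tcstv3 was dim throughout and not well above background in Mbd3 KD. Its log2 signal was -3.61 and -3.11 in EGFP KD and -4.86, the floor, and -4.52 in Mbd3 KD, where neither spot was well above background. With the floor and that reading taken as they stand, Tcstv3 was 2.51-fold higher in EGFP KD than in Mbd3 KD. A true signal under the floor would make this larger, but 2.51-fold is no lower limit, since it leaves out the spread between arrays. The log2 FC in the fit was -1.33 (SE 0.61, limma, adjusted p = 0.578), with a 95% interval of -2.78 to 0.12 that includes no change. It was -1.28 with the slide as a term in the fit, and ranged from -1.58 to -1.08 with each array left out. With a lower floor, added after seeing the data, it was -2.04. One array outside Mbd3 KD, Tet1 KD 2, was also at the floor, although the scanner marked the spot as well above background.

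Tcstv1 had a smaller difference. It read -3.54 and -3.31 in EGFP KD and -3.80 and -4.25 in Mbd3 KD, a log2 FC of -0.60 (SE 0.34, limma, adjusted p = 0.707). Within slide 1 the difference was -0.26, which is close to the gap between the 2 EGFP KD arrays. Over the 12 arrays Tcstv1 correlated with Zscan4f at r = 0.527, and Tcstv3 did so at r = 0.788, as a description of arrays that share slides and controls.

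Zfp352 differed little in Mbd3 KD. Probe A_55_P2060343 read 3.26 and 3.51 in EGFP KD and 3.58 and 3.46 in Mbd3 KD, a log2 FC of 0.14 (SE 0.56, 95% interval -1.18 to 1.45). The interval is wide because the Dnmt1 KD arrays, which share the estimate of the spread, read 3.48 and 1.47. The dim probe of the same gene, A_55_P2182056, was not well above background on EGFP KD 1 or Mbd3 KD 1. The 2 Zfp352 probes correlated at r = -0.411 over the 12 arrays, so they did not report a common level.

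Both Mbd3 KD arrays were thus below both EGFP KD arrays for 4 of the 5 genes (Zscan4c, Zscan4f, Tcstv1 and Tcstv3). That held for 16.9% of all genes tested. The Zscan4 genes share sequence, so these 4 are fewer than 4 independent readings.

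Dnmt1 KD gave small differences that pointed down for all 5 genes, beside 54.9% of all genes tested with a log2 FC below 0 there. In Chd4 KD all 5 were below 0 too, beside 51.8% of all genes. Zscan4f read 0.54 and 0.94 on the Dnmt1 KD arrays, both below the EGFP KD arrays and above the Mbd3 KD arrays, a log2 FC of -0.57 (SE 0.49, limma, adjusted p = 0.938). Zscan4c (A_55_P2007017) read -0.41 and 0.10, a log2 FC of -0.55 (SE 0.40, limma, adjusted p = 0.938). Tcstv3 differed by -0.52 and Tcstv1 by -0.66, and none of these passed the unadjusted threshold either. Both Dnmt1 KD arrays were below both EGFP KD arrays for 4 of the 5 genes, against 10.4% of all genes tested. The difference within slide 1 was -0.72 for Zscan4f and -0.80 for Zscan4c, and it was -0.02 for Tcstv1. The third Zscan4c probe, A_52_P363843, did not share the direction, with a log2 FC of 0.07.

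For the fifth gene, Zfp352, the log2 FC was -0.91 (SE 0.56, limma, adjusted p = 0.938), and it came from a single array. On Dnmt1 KD 1 the bright probe was 0.10 above the EGFP KD mean, and on Dnmt1 KD 2 it was 1.91 below it. On that same array the dim Zfp352 probe was 1.12 above its EGFP KD mean. Without Dnmt1 KD 2 the log2 FC of Zfp352 was 0.10.

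**Figure D2:**
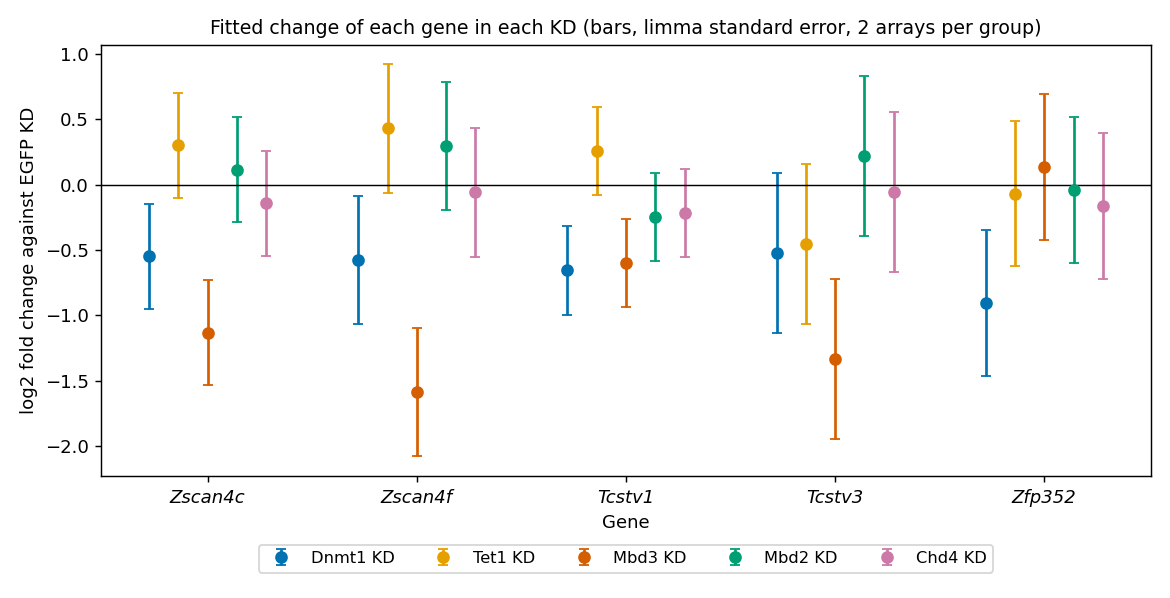
Fitted log2 FC against EGFP KD (vertical axis) of the 5 genes in each KD, as points with bars of 1 limma standard error, from 2 arrays per group. Zscan4f, Tcstv3 and Zscan4c in Mbd3 KD, at -1.59, -1.33 and -1.13, lie farthest below 0, and Zfp352 in Mbd3 KD lies at 0.14.

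Chd4 KD, which reduces the ATPase of both the Mbd3 and the Mbd2 form of NuRD, gave a smaller fitted difference than Mbd3 KD for the Zscan4 genes. Zscan4f read 1.22 and 1.29, and its log2 FC was -0.06 (95% interval -1.219 to 1.104). Zscan4c (A_55_P2007017) read 0.25 and 0.24, and its log2 FC was -0.14 (95% interval -1.09 to 0.81). Both were slightly above 0 with normexp background correction, and Zscan4f was so with quantile normalization. With the slide as a term in the fit they lay farther below, at -0.38 for Zscan4f (limma, adjusted p = 0.774) and -0.47 for Zscan4c (limma, adjusted p = 0.499). The intervals hold changes of more than 1 log2 unit in size, so they do not show that the signal stayed the same. Tcstv1, Tcstv3 and Zfp352 differed by -0.22, -0.06 and -0.16. For Zscan4f, Tcstv1, Tcstv3 and Zfp352 at least 1 Chd4 KD array lay within the range of the EGFP KD arrays. How often that held over all genes in Chd4 KD is not given here. The difference between Mbd3 KD and Chd4 KD was not tested. For Zscan4c (A_55_P2007017) both Chd4 KD arrays were just under both EGFP KD arrays, while A_52_P363843 of the same gene was higher by 0.50.

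The Zscan4 probes differed between the 2 arrays labelled Tet1 KD and between the 2 arrays labelled Mbd2 KD. Relative to the EGFP KD mean, Zscan4f was 0.91 on the array labelled Tet1 KD 1 and -0.05 on Tet1 KD 2. It was -0.44 on the array labelled Mbd2 KD 1 and 1.03 on Mbd2 KD 2. All 6 Zscan4 probes were higher than their EGFP KD mean on Tet1 KD 1 and Mbd2 KD 2, by between 0.50 and 1.41.

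The mRNA of the targeted genes split the same pairs. Mbd2, by probe A_66_P133043, was -1.75 and -1.77 relative to the EGFP KD mean on the arrays labelled Tet1 KD 1 and Mbd2 KD 2, and -0.23 and -0.24 on the arrays labelled Tet1 KD 2 and Mbd2 KD 1. Tet1, by probe A_55_P2122997, was -1.81 and -1.79 on those latter arrays, and -0.02 and -0.19 on the former. A second Tet1 probe, A_51_P512172, split the arrays in the same way (-0.93 and -1.18 against 0.23 and 0.25), but a second Mbd2 probe, A_55_P2036526, did not (-0.20 and -0.07 against -0.61 and -0.08). By the first probe of each, the labels of Tet1 KD and Mbd2 KD go against the targeted mRNA for 1 array each, and no direction is drawn here for either KD. As labelled, the log2 FC of Zscan4f was 0.43 (SE 0.49) in Tet1 KD and 0.30 (SE 0.49) in Mbd2 KD, each with a limma adjusted p of 1. The other targets were reduced on both arrays of their KD: Mbd3 (A_66_P127024) by -3.07 and -2.85, Dnmt1 by -1.64 and -2.35, and Chd4 by -1.55 and -1.01, relative to the EGFP KD mean on the log2 scale.

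**Figure D3:**
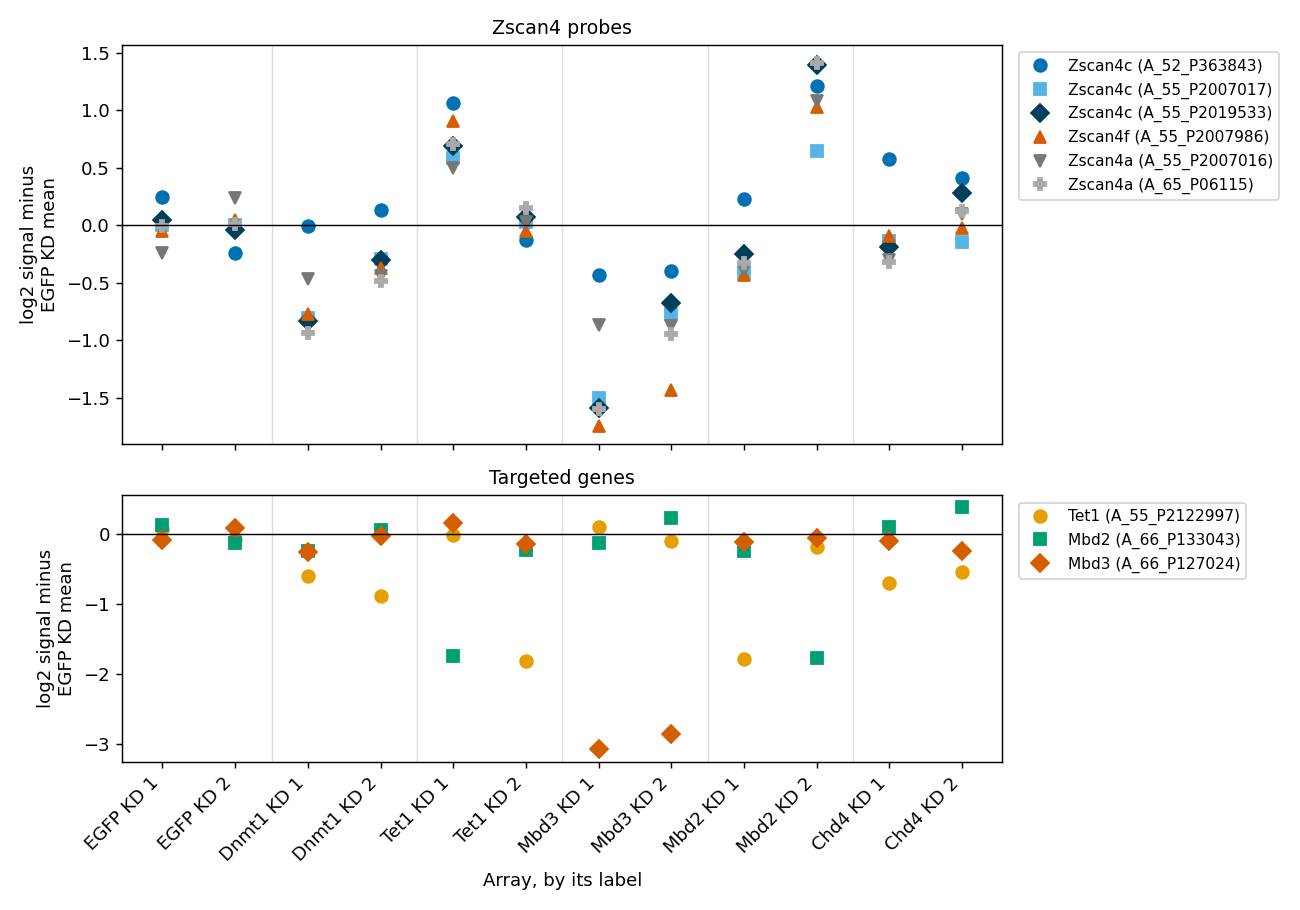
Log2 signal minus the EGFP KD mean (vertical axes) of 6 Zscan4 probes (upper panel) and of Tet1, Mbd2 and Mbd3 (lower panel) on each of the 12 arrays, named by label. The Zscan4 probes are above 0 on Tet1 KD 1 and Mbd2 KD 2, where Mbd2 is at -1.75 and -1.77, and between -1.74 and -0.40 on the Mbd3 KD arrays, where Mbd3 is at -3.07 and -2.85.

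The remaining genes followed the same pattern between arrays only in part. For Tcstv3 the arrays were 0.59 on Tet1 KD 1, at the floor on Tet1 KD 2, -0.03 on Mbd2 KD 1 and 0.47 on Mbd2 KD 2, relative to the EGFP KD mean. For Tcstv1 they were 0.30, 0.22, -0.39 and -0.11 in the same order. The bright Zfp352 probe lay between -0.22 and 0.13 on all 4 of these arrays.

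Leaving out the arrays labelled Tet1 KD and Mbd2 KD, which are given singly above and put in no order, the group means of Zscan4f were 1.31 in EGFP KD, 1.26 in Chd4 KD, 0.74 in Dnmt1 KD and -0.27 in Mbd3 KD. The EGFP KD and Chd4 KD arrays overlapped, while those of Chd4 KD and Dnmt1 KD, and those of Dnmt1 KD and Mbd3 KD, did not. Zscan4c (A_55_P2007017) had the same order of these 4 groups, from 0.39 in EGFP KD to -0.74 in Mbd3 KD, and its Dnmt1 KD and Mbd3 KD arrays overlapped. A_55_P2019533 and A_52_P363843 of the same gene did not have that order. Chd4 KD was above EGFP KD for both, and for A_52_P363843 so was Dnmt1 KD. Mbd3 KD was lowest for both. Of the 4 groups Mbd3 KD was also lowest for Tcstv3. For Tcstv1 the lowest was Dnmt1 KD at -4.08, with Mbd3 KD at -4.03, and the arrays of these groups overlapped. For the bright Zfp352 probe the arrays overlapped between every pair of neighbours in the order.

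A wider list of genes known from the two-cell stage held 47 names, such as the Usp17l deubiquitinases, the Tdpoz genes and the Pramel genes. Of these, 35 had a probe and were tested, and 28 were above background on all arrays. None was called in any KD. In Mbd3 KD 9 of the 35 were lower at an unadjusted p under 0.05 and 0 were higher, beside 5.3% of all genes that were lower there at that threshold. The median log2 FC of the 35 was -0.44, and that of all genes tested was -0.03. In Chd4 KD 3 of the 35 were higher at that threshold and 0 lower, where 12.8% of all genes passed in either direction, with a median of 0.24 beside 0 for all genes. Of these 3, Arg2 was at the floor on both EGFP KD arrays and at -4.45 and -3.93 in Chd4 KD. It could only come out higher, so it says nothing about direction. No gene of the list passed that threshold in Dnmt1 KD, Tet1 KD or Mbd2 KD, where the medians were -0.19, 0.20 and 0.19 beside -0.015, 0.085 and -0.0042 for all genes. Many of these genes are multicopy, so 1 probe may have read several of them.

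Among listed genes measured on every array compared, Usp17lb, a deubiquitinase copy, had the largest difference in Mbd3 KD. It read -3.12 and -3.02 in EGFP KD and -4.86 and -4.75 in Mbd3 KD, where it was at the floor on 1 array, a log2 FC of -1.74 (SE 0.35, limma, adjusted p = 0.102). Gm4340 read 0.69 and 0.74 in EGFP KD and -0.99 and -0.37 in Mbd3 KD (log2 FC -1.40, limma, adjusted p = 0.449). Tmem92, a transmembrane protein gene, read -2.55 and -2.49 in EGFP KD and -4.16 and -3.57 in Mbd3 KD (log2 FC -1.34, limma, adjusted p = 0.355). Each of these had both Mbd3 KD arrays under both EGFP KD arrays. Pramel14, of the Prame family of leucine-rich repeat proteins, went from -2.71 and -2.23 in EGFP KD to -1.01 and -1.09 in Chd4 KD (log2 FC 1.42, limma, adjusted p = 0.105). Tdpoz9 had a log2 FC of 2.08 in Tet1 KD, but its EGFP KD arrays were at -4.05 and 0.01, so the difference rested on 1 control array.

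**Figure D4:**
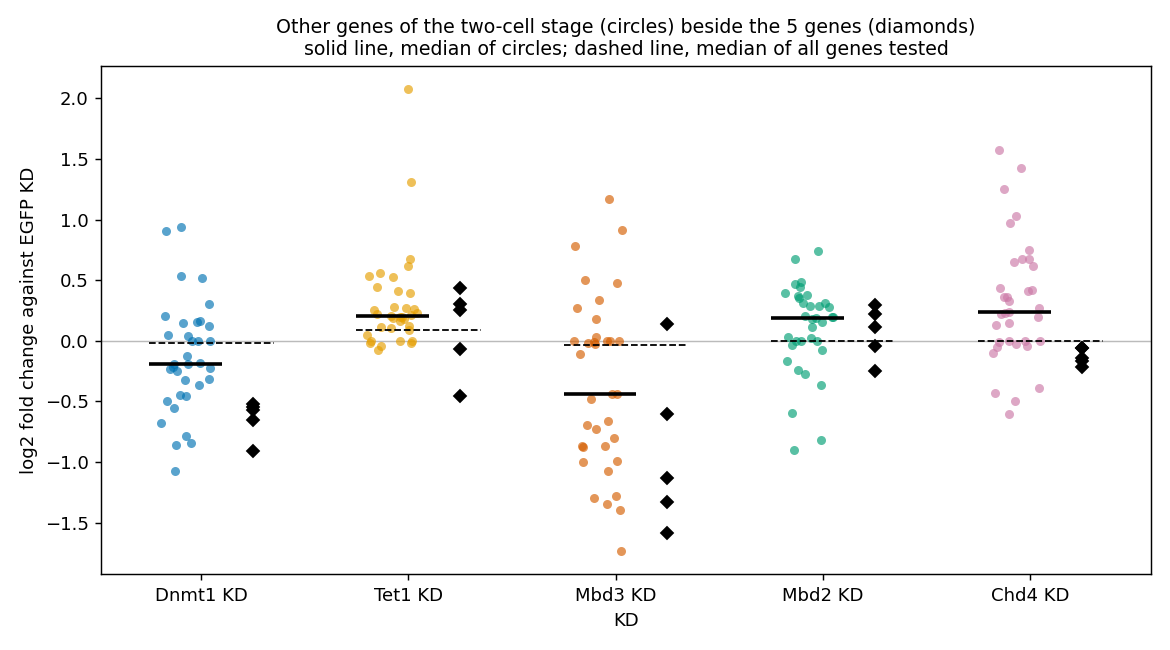
Log2 fold change against EGFP KD (vertical axis) of the 35 other genes of the two-cell stage (circles, solid line at their median) and of the 5 genes (diamonds) in each KD, with a dashed line at the median of all genes tested. In Mbd3 KD the circles have a median of -0.44 and reach from -1.74 to 1.17, and in Chd4 KD their median is 0.24.

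The genes whose profile over the 12 arrays was most like the mean of the 5 genes were Gm20767 (r = 0.921), Gm4340 (r = 0.917), Gm4312 (r = 0.914), Gm4303 (r = 0.912) and Gm11758 (r = 0.902). Gm20767 and Gm4340 are on the list above, and the other 3 are not. Gm4303 read -1.35 and -1.46 in EGFP KD and -3.60 and -3.02 in Mbd3 KD, a log2 FC of -1.90 (limma, adjusted p = 0.316). Gm4312 differed by -1.45 there and Gm11758 by -0.74, with limma adjusted p-values of 0.497 and 0.547. The arrays share slides and controls, so these correlations describe likeness on these arrays only. The genes were picked by that likeness, with the Mbd3 KD arrays included, so their lower values there are not a separate result.

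Of 23 genes tested that are known to switch this set on or off, 1 was called in Chd4 KD, where 3.19% of all genes were called, and 0 in each other KD. Of 6 known activators 4 were tested, namely Dppa2 and Dppa4, which act upstream of the two-cell genes, Trp53 and Nelfa, and none was called. The remaining activators had no probe matched to their names, so nothing is known of them here. The gene Dux (Duxf3) was not among the genes tested. In Mbd3 KD Dppa2 differed by -0.46 (limma, adjusted p = 0.717) and Dppa4 by -0.19 (limma, adjusted p = 0.922). In Chd4 KD they differed by -0.62 (limma, adjusted p = 0.39) and -0.45 (limma, adjusted p = 0.76). Of 19 known repressors, all tested, E2f6, a subunit of a Polycomb-type repressor complex, was called in Chd4 KD. It read 0.75 and 0.55 in EGFP KD and 1.51 and 1.23 in Chd4 KD, a log2 FC of 0.72 (SE 0.14, limma, adjusted p = 0.0486). That call was lost in most alternatives, among them the slide as a block and the fits without either EGFP KD array or either Chd4 KD array. In Mbd3 KD E2f6 differed by 0.34 (limma, adjusted p = 0.521), and no repressor was called there.

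The markers of ES cells other than Nanog were present in all groups. The Nanog probe was close to the floor, at -4.58 and -4.10 in EGFP KD. It read -4.53 and -4.86 in Mbd3 KD and -4.82 and -4.86 in Chd4 KD, and was not above background on every array of either KD. All 10 pluripotency genes were tested, 9 were above background on every array, none was called in any KD, and their summed scaled signal was 180–202 in EGFP KD and 161–210 in Mbd3 KD. Between 1036 and 1305 probes were saturated on each array. Esrrb and Zfp42 read 4.56 and 4.56 on EGFP KD 1, and 5.24 and 5.23 on Mbd3 KD 2. Whether such bright markers were saturated is not given here. A saturated spot cannot show a change, so no conclusion is drawn from this sum. Of 8 fibroblast genes tested 1, Thy1, rose in Mbd3 KD (log2 FC 1.28, limma, adjusted p = 0.0108), and 6 of the 8 had a log2 FC below 0, with a median of -0.23. The list's sum was 5.3–5.89 in EGFP KD and 9.59–10.1 in Mbd3 KD, of which Thy1 alone made up 59.0% to 61.2% and 79.2% to 86.5%. Of 8 trophectoderm genes 1, Tfap2c, rose in Mbd3 KD (log2 FC 0.80, limma, adjusted p = 0.0441), and 3 of the 8 were below 0, among them Hand1 at -1.05. That sum was 6.91–7.63 in EGFP KD and 11.5–11.8 in Mbd3 KD, of which Tfap2c made up 51.8% to 58.1% and 57.7% to 61.3%. No gene of the 8 in the primitive endoderm list was called in Mbd3 KD, and its sum was 0.997–1.73 in EGFP KD and 1.27–1.47 in Mbd3 KD. In Chd4 KD the calls were Thy1 (log2 FC 1.42) and Col1a1 (2.49) of the fibroblast list, Tfap2c (1.05) and Krt18 (1.18) of the trophectoderm list and Afp (2.26) of the primitive endoderm list, all higher (limma, adjusted p between 0.00197 and 0.0197), with Afp at the floor on EGFP KD 1. Below 0 in Chd4 KD were 6 of the 8 fibroblast genes (median -0.26), 1 of the 8 trophectoderm genes and 2 of the 8 primitive endoderm genes. The sums of these lists there were 9.43–12.6, 14.3–15.0 and 1.46–1.89, in that order. These sums add signals of different probes and serve only to compare arrays. The part of these markers in the Zscan4 values was not tested. The arrays lay on 3 slides, and slide 3, which held the second arrays of Mbd3 KD, Chd4 KD, Mbd2 KD and Dnmt1 KD, had no control. The share of probes that were well above background was 76.9% on Mbd3 KD 2, the lowest of the 12 arrays, and 95.1% on Chd4 KD 1, the highest.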

How the data were processed

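RNA from 12 samples in 6 groups was labelled with Cy3 and hybridised to Agilent 4x44K arrays by the authors, who read the spots with Feature Extraction 10.7.1.1. The authors deposited each spot's processed intensity, from which the scanner software had subtracted the background, with no scaling from array to array. A second file that the authors deposited gives log2 values against the control. It holds no row for Tcstv1 or Zfp352, and its values fit a log2 ratio of log2 signals. Their size cannot be set beside the fold changes given here. It was used only as an alternative.

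Of 43020 spots that are not controls, those marked as outliers were left out of their array. Each array was scaled by its own 75th percentile of intensity (1784.5 to 2451.6), values were set to at least 0.0344 (log2 -4.86), and log2 was taken. Accessions were matched to symbols in RefSeq's gene table of GRCm38.p6, which named 71.4% of spots. To be tested, a probe had to be well above background on both arrays of some group, and the brightest stood for a gene. The 6 groups were fitted together in limma 3.58.1 (R 4.3.3), giving a contrast of every KD against EGFP KD, and a gene was called at an adjusted p under 0.05 (Benjamini-Hochberg, within that contrast). The steps were tested on simulated data. The number of arrays limits the precision.

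Groups came from the sample labels. The paper calls the arrays biological replicates, and whether they came from separate transfections is not given in the sources used here. The members and lists were chosen with earlier results of these data known, and the lists came from general knowledge. Beyond the 5 genes, the text names listed genes called in a KD or, where none was, the 5 with the largest difference among those measured on all 4 arrays compared, regulators that were called, the 5 genes most like the mean of the 5, and the targeted genes. Dppa2, Dppa4, Zscan4a, Hand1 and the called markers of other cell types were added after their values were seen. Promoter windows came from RefSeq, and pairs were aligned with Biopython 1.88.

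Alternatives were quantile normalization, normexp (offset 50, on the median signal), the deposited table, no filter or a filter over all 12 arrays, the mean of a gene's probes, every probe, a block for the replicate number or the slide, a fit on just the 4 arrays compared, each array left out, a trended and robust prior and an unadjusted p. A lower floor and a fit without the arrays labelled Tet1 KD or Mbd2 KD were added after seeing the data.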

Additional observations from a re-analysis of the deposited data

How the results depend on the processing

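Zscan4c, Zscan4f, Tcstv1 and Tcstv3 kept a lower value in Mbd3 KD under every alternative that gave them one (Tcstv1 had none in the deposited table, and Tcstv3 none with the filter over all 12 arrays), and all but 2 of the alternatives called 0 of the 5 genes there. An unadjusted p gave 2 (Zscan4c and Zscan4f). The deposited table gave 3 (Zscan4c, by 1 of its 3 rows, Zscan4f and Tcstv3), in a test against 0 that leaves out the spread of the control. In the other KDs 0 of the 5 were called in every setting. The same-numbered arrays of 15 pairs of groups deviated together at r between -0.042 and 0.767, with a median of 0.384 and 10 over 0.1. Not every pair was over 0.1, so the numbers were not taken as pairs, and numbers also go with slides: Dnmt1 KD, Mbd3 KD and Mbd2 KD have array 1 on slide 1 and array 2 on slide 3. With a replicate block, Zscan4f in Mbd3 KD was -1.59 (limma, adjusted p = 0.265) and it raised the calls over all genes from 228 to 248 for Mbd3 KD and from 952 to 1281 for Chd4 KD.

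Values near 0 changed sign, none of them called, and the cause was not tested. Quantile normalization gave -0.0676 for Tcstv1 and 0.0678 for Zfp352 in Tet1 KD, and 0.0564 for Zscan4f and 0.0568 for Zfp352 in Chd4 KD. Normexp gave -0.7077 for Tcstv1 and 0.0973 for Zfp352 in Tet1 KD, -0.1474 for Zfp352 in Mbd3 KD, -0.585 for Tcstv3 in Mbd2 KD, and 0.1997 for Zscan4c and 0.1401 for Zscan4f in Chd4 KD. The mean of a gene's probes gave 0.3135, 0.2745 and 0.4116 for Zfp352 in Tet1 KD, Mbd2 KD and Chd4 KD, and 0.1328 for Zscan4c in Chd4 KD. The slide as a block gave 0.0024, 0.2379 and 0.1856 for Zfp352 in those KDs and -0.0445 for Zscan4c in Mbd2 KD. The deposited table gave 0.0264 for Zscan4c and 0.0143 for Zscan4f in Chd4 KD.

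With each array left out, the log2 FC ranged from -1.9123 to 0.0995 for Zfp352 in Dnmt1 KD. In Tet1 KD it ranged from -0.192 to 0.0577 for Zfp352, -0.0467 to 0.91 for Zscan4f and -1.4988 to 0.5918 for Tcstv3. In Mbd2 KD it ranged from -0.2169 to 0.1343 for Zfp352, -0.41 to 0.6428 for Zscan4c, -0.4354 to 1.0313 for Zscan4f and -0.0313 to 0.4763 for Tcstv3. In Chd4 KD it ranged from -0.3103 to 0.1973 for Tcstv3.

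Of the other listed genes, 1 was called in Chd4 KD with the slide as a block (Pramel14), and between 0 and 1 with each array left out (Pramel16, without either Mbd2 KD array). At an unadjusted p, 9 passed in Mbd3 KD and 3 in Chd4 KD. Of the regulators, E2f6 in Chd4 KD was not called, leaving 0, with normexp, a filter over all 12 arrays, the slide as a block, only 4 arrays, the trended prior, the lower floor, or without the arrays labelled Tet1 KD or Mbd2 KD, and the count was between 0 and 1 with each array left out. At an unadjusted p, 4 regulators passed in Chd4 KD and 1, Dnmt1 itself, in Dnmt1 KD. The lists were not run on the deposited table. With 2 arrays per group and 2 control arrays shared by all KDs, the median standard error of a log2 FC was 0.27, and Tcstv1, Tcstv3 and the dim Zfp352 probe lay close to the background.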
